A study of Mus musculus with 15 samples.

Results

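TUBO cells and MM3MG-Her2 cells both carry Neu, the rodent form of the receptor tyrosine kinase Her2, but they reached that state by different routes. TUBO is a mouse mammary carcinoma line taken from primary tumours of Balb-NeuT mice, which carry Neu as a transgene. MM3MG-Her2 was made by infecting MM3MG, a line described as normal mammary epithelium of BALB/c mice, with pLSXN-Neu retrovirus. Both groups were untreated and grown in DMEM with 10% FCS. The comparison covers 6 of the 15 small RNA libraries of a study of Her2 and progesterone signalling, 3 of TUBO cells and 3 of MM3MG-Her2, chosen by their labels alone. The 3 libraries of MM3MG, which has no Neu vector, entered the fit and are quoted as a reference level. The groups therefore differ in cell of origin, in tumour history and in how Neu was introduced, and these cannot be told apart here. It is not stated whether MM3MG-Her2 is 1 clone or a pool, or whether replicates were separate cultures, so p-values measure the spread between these libraries, which may be technical. Inserts of 18 to 26 bases were assigned to mouse hairpin arms by their first 18 bases, and by later bases where arms share these. This gave 717 miRNA arms with a read in the 6 libraries and 282 with enough reads to be tested.

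A microRNA (miRNA) is a small RNA cut from a hairpin precursor and loaded into an Argonaute protein, where it lowers the output of mRNAs that pair with its seed, bases 2 to 8 from the 5′ end. miRNAs that share a seed share most of their predicted targets, and hairpins that lie close together are often cut from 1 transcript. In mammary tissue the miR-200 family marks epithelial cells and represses the transcription factors Zeb1 and Zeb2, whereas miR-199 and miR-214 are typical of mesenchymal and stromal cells. Several other miRNAs lie inside Hox gene clusters or imprinted loci and report which of those loci are transcribed.

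Mature sequences are given from RefSeq (GRCm38.p6), 5′ to 3′, with the seed in capitals. They are a selection of miRNAs that separated the lines widely or were abundant, with some that share their seeds. The first set was more abundant in TUBO cells. Within it, miR-200b, miR-200c and miR-429 share 1 seed and miR-200a and miR-141 share another, while miR-30a and miR-30c share the miR-30 seed and miR-181a and miR-181d the miR-181 seed.
miR-200b-3p: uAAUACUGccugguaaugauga
miR-200c-3p: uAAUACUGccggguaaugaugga
miR-429-3p: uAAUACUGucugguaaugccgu
miR-200a-3p: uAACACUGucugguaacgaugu
miR-141-3p: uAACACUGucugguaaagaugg
miR-9-5p: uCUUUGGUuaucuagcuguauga
miR-204-5p: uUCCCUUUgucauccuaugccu
miR-203-3p: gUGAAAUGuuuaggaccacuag
miR-30a-5p: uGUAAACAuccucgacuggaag
miR-30c-5p: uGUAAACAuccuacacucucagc
miR-181a-5p: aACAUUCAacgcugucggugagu
miR-181d-5p: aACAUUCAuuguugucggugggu
miR-182-5p: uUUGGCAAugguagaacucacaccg

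The second set was more abundant in MM3MG-Her2. Here miR-10a and miR-10b share 1 seed, miR-196a and miR-196b another, and each of the remaining seeds occurs once in the set.
miR-21a-5p: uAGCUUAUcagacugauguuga
miR-199a-3p: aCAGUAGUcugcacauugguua
miR-199a-5p: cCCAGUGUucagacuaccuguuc
miR-214-3p: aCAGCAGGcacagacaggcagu
miR-10a-5p: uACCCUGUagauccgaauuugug
miR-10b-5p: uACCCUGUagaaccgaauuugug
miR-196a-5p: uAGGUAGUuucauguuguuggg
miR-196b-5p: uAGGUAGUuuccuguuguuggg
miR-206-3p: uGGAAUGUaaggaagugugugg
miR-218-5p: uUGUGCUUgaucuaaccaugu

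The seeds marked are those of the RefSeq 5′ end, where most but not all reads began. For miR-203-3p only 44.3% of TUBO reads began there, and for miR-214-3p 53.3% of MM3MG-Her2 reads did. The shares for miR-10a-5p were 67.0% in TUBO cells and 65.6% in MM3MG-Her2, and those for the miR-199a-3p sequence 66.2% and 70.7%. Reads that begin elsewhere carry a shifted seed.

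Inserts matching the mouse Erbb2 transcript, the gene of Her2, were counted first as a check of the labels. Only inserts lying whole within that mouse sequence were counted, so these reads do not tell the introduced Neu from the cells' own Erbb2. There were 5, 4 and 4 such reads in TUBO cells, 8, 15 and 14 in MM3MG-Her2, and 0, 0 and 0 in MM3MG. Total reads ran from 525422 to 710902 in TUBO cells and from 341106 to 475769 in MM3MG-Her2, of which 401386 to 538817 and 176297 to 261204 were miRNA reads. The MM3MG-Her2 libraries stood apart from the other 6 in composition. miRNAs accounted for 76.3% ± 0.494 (SD, n = 3) of reads in TUBO cells, for 52.2% ± 2.43 in MM3MG-Her2 and for 76.8% ± 3.72 in MM3MG. Short inserts, of at most 20 bases, accounted for 10.1% ± 0.277, 16.1% ± 1.71 and 10.2% ± 1.15, in the same order. For both traits the 3 TUBO and the 3 MM3MG-Her2 libraries did not overlap (exact two-sided permutation p = 0.1, the smallest that 3 against 3 allows). Their part in the differences below was not tested. Levels are given in CPM, the count scaled to a library of 1000000 miRNA reads, so that a lower share of miRNA reads in a library is divided out. CPM values carry no further scaling, whereas fitted log2 changes (TUBO cells minus MM3MG-Her2, with their SE) carry edgeR's TMM scaling. A count of 0 allows up to 3 reads, which is 5.57 to 7.47 CPM in a TUBO library and 11.5 to 17.02 CPM in a MM3MG-Her2 library. These limits and the intervals of ratios cover counting error only, since reads amplified by PCR without molecular identifiers are not independent molecules.

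Most miRNAs differed between the Neu-positive lines. Of the 282 tested, 207 (73.4%) passed an edgeR adjusted p of 0.05, 94 higher in TUBO cells (33.3%) and 113 lower (40.1%), and for 225 (79.8%) the libraries of the groups did not overlap. The differences were large: 120 miRNAs differed at least 4-fold on the fitted scale, 50 higher and 70 lower, and 59 differed at least 32-fold, 25 higher and 34 lower. Some of the tested miRNAs had more than 3 reads in one line and none in the other. Of these, 11 were read in TUBO cells alone of the pair and 29 in MM3MG-Her2 alone. Arms with too few reads to be tested were not counted here. The filter on low counts used all 9 libraries, so an arm could be tested through its level in MM3MG alone. Of the 29, 12 were arms of the Dlk1-Dio3 locus described below. With only the 6 libraries fitted, 93 miRNAs were higher and 100 lower. Over all 282 tested in the main fit, the median log2 change was −0.10 with TMM scaling. It was −0.30 with RLE scaling and −0.63 with upper-quartile scaling. The share of calls that were rises moved with it, from 45.4% with TMM to 34.4% with upper-quartile scaling. Changes below are given with TMM scaling, and another scaling is named where it ended the call of a miRNA described.

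**Figure D1:**
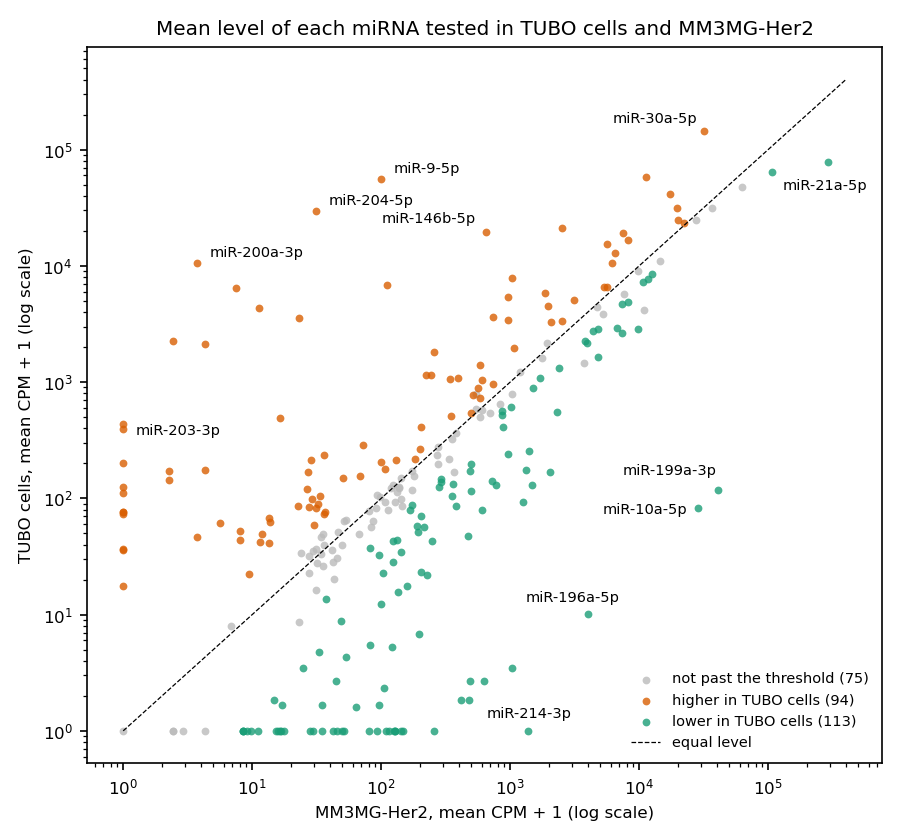
Mean CPM + 1 of each of the 282 tested miRNAs in MM3MG-Her2 (x axis) and TUBO cells (y axis), both on log scales, coloured by the edgeR call. Points far above the dashed line of equal level include miR-200a-3p, miR-204-5p and miR-9-5p, and points far below it include miR-214-3p, miR-10a-5p and miR-199a-3p.

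The most abundant miRNA differed between the lines. In TUBO cells the most abundant was miR-30a-5p, at 143329, 150110 and 140370 CPM, and in MM3MG-Her2 it was miR-21a-5p, at 266317, 294582 and 315848 CPM. miR-21a-5p, an abundant miRNA of many tumours cut from a hairpin in an exon of Vmp1, was at 78904, 77247 and 76339 CPM in TUBO cells. Every TUBO library was thus below every MM3MG-Her2 library, with a fitted log2 change of −1.64 ± 0.09 (SE, n = 3 per group, edgeR adjusted p = 2.3e-14). The tumour line was also below MM3MG, where the mean was 200642 CPM. Of all miRNA reads, the top miRNA alone took 14.5% in TUBO cells and 29.2% in MM3MG-Her2, and the top 10 took 58.1% and 67.0%.

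The miR-200 family gave the widest contrast. Its 5 members come from 2 loci, Mir200b, Mir200a and Mir429 at chr4:156053905-156055750 in an intron of Ttll10, and Mir141 and Mir200c at chr6:124717914-124718390 (GRCm38, minus strand). miR-200a-3p was at 9982, 10842 and 10762 CPM in TUBO cells and at 4.31, 3.83 and 0 CPM in MM3MG-Her2. The latter rests on 2 reads, and the ratio of 3520 has a 95% counting interval of 974 to 29071. miR-200b-3p, its neighbour, was at 6793, 6079 and 6451 CPM against 4.31, 3.83 and 11.3 CPM (log2 change 10.26 ± 0.25, edgeR adjusted p = 1.7e-21). From the other locus, miR-200c-3p was at 4608, 3924 and 4497 CPM against 4.31, 3.83 and 22.7 CPM (log2 change 9.13 ± 0.27), and without MM3MG-Her2 replicate 3, which holds most of its reads there, the change was 10.26.

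miR-429-3p and miR-141-3p had 2 and 1 reads in all MM3MG-Her2 libraries, giving ratios of 721 (interval 200 to 5959) and 1508 (interval 271 to 59590). Fitted changes that rest on so few reads moved with single libraries: that of miR-141-3p was 10.51, and 12.67 without MM3MG-Her2 replicate 1, which holds its only read there, or 9.89 without replicate 2. That of miR-429-3p was 9.59, and 8.93 without replicate 2. The passenger arms miR-200a-5p and miR-141-5p had no MM3MG-Her2 read and were at least 97.4-fold and 27.7-fold higher in TUBO cells, taking 3 reads over the group as the floor. All 5 family members tested were higher, with a median log2 change of 10.26 beside −0.10 over all miRNAs tested. Together they made up 2.61%, 2.49% and 2.61% of miRNA reads in TUBO cells. In MM3MG-Her2 the share was 0.00215%, 0.00115% and 0.00397%, and in MM3MG its mean was 0.00207%. The epithelial defining markers of this list were therefore at or near 0 in the line labelled as normal mammary epithelium and in its Neu-transduced derivative. In bulk RNA, fewer cells that make a miRNA and less of it per cell cannot be told apart.

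Other miRNAs listed as epithelial were mostly higher as well: of 9 tested, 7 were higher, 1 lower and 1 not past the threshold, with a median log2 change of 3.19. miR-204-5p, cut from an intron of the ion channel gene Trpm3 (chr19:22750605-22750672), was at 30131, 29916 and 29093 CPM in TUBO cells and at 38.8, 22.97 and 28.4 CPM in MM3MG-Her2 (log2 change 10.22 ± 0.19, edgeR adjusted p = 4.7e-24). Its passenger arm miR-204-3p was read only in the TUBO libraries of this pair, at least 24.8-fold higher. miR-203-3p, a miRNA of differentiating epidermis that limits the stem cell factor p63, was at 392, 384 and 405 CPM with no read in MM3MG-Her2, at least 88.1-fold higher.

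Also without a read in MM3MG-Her2 were miR-135b-5p, at 181, 199 and 225 CPM in TUBO cells and at least 45.2-fold higher, and miR-205-5p, a basal epithelial miRNA that represses Zeb1, at 61.8, 89.7 and 74.2 CPM and at least 16.6-fold higher. The sensory and epithelial cluster miR-183/96/182 (chr6:30165918-30169737) was present in both lines but higher in TUBO cells. miR-182-5p was at 51910, 55976 and 65221 CPM against 12916, 10911 and 9921 CPM (log2 change 2.63 ± 0.11), miR-183-5p was 3.19 ± 0.13 higher and miR-96-5p 2.19 ± 0.35. The exception was miR-31-5p, a suppressor of metastasis in breast cancer models, at 4682 ± 56.6 CPM against 7308 ± 314 CPM. Its log2 change of −0.37 ± 0.11 passed the threshold (edgeR adjusted p = 3.7e-03) but not without the filter on low counts (edgeR adjusted p = 6.4e-02).

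**Figure D2:**
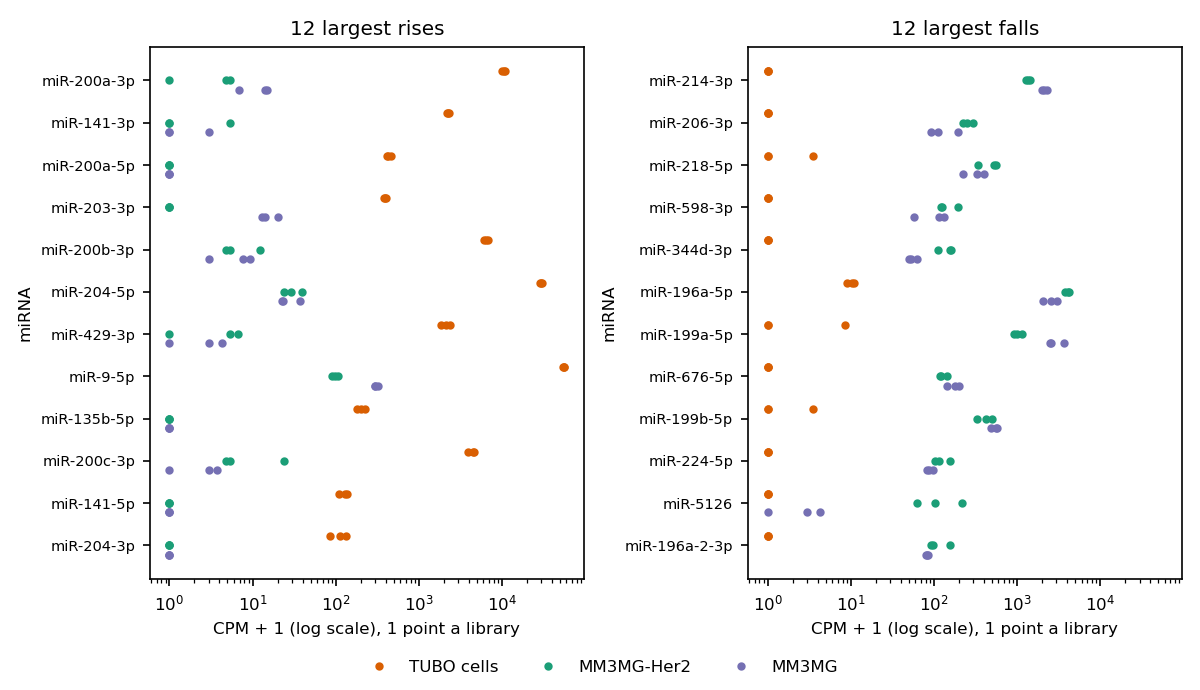
CPM + 1 on a log scale in each library (1 point a library) for the 12 miRNAs with the largest rise and the 12 with the largest fall from MM3MG-Her2 to TUBO cells, with MM3MG beside them. The TUBO points lie apart from the MM3MG-Her2 points for all 24, and the single TUBO point off the baseline for miR-218-5p, miR-199a-5p and miR-199b-5p is replicate 2.

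The stromal and mesenchymal list ran the other way for most members: of 10 tested, 7 were lower, 0 higher and 3 not past the threshold. Its median log2 change was −5.22, or −3.97 with members that had no TUBO read set at their bound. miR-214-3p, cut with miR-199a from the antisense transcript Dnm3os, was at 1370, 1455 and 1305 CPM in MM3MG-Her2 with no read in any TUBO library, at least 666-fold lower. The shared miR-199a-3p and miR-199b-3p sequence was at 40892, 40198 and 41509 CPM there and at 43.8, 242 and 65.0 CPM in TUBO cells. Its log2 change was −8.24 ± 0.67 (edgeR adjusted p = 2.4e-05), and −9.30 without TUBO replicate 2.

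That TUBO library carried more of these reads than the other 2 for several members. All 3 TUBO reads of miR-199a-5p and the only TUBO read of miR-199b-5p were in replicate 2, against 691 and 284 reads in MM3MG-Her2. The ratios were 496 (interval 169 to 2411) and 612 (interval 109 to 24241), and without replicate 2 their fitted changes went from −8.47 to −11.43 and from −8.44 to −10.14. Why that library held more of these reads was not tested. The separation was small or absent for other stromal miRNAs. miR-143-3p, abundant in smooth muscle and fibroblasts, was at 47516, 47413 and 47558 CPM in TUBO cells and 64915, 61607 and 60931 CPM in MM3MG-Her2. The groups did not overlap in CPM, but the TMM-scaled change of −0.12 ± 0.11 did not pass (edgeR adjusted p = 3.0e-01), and it did, as a lower level, with RLE, upper-quartile and library-size scaling and with only the 6 libraries fitted. When the whole insert had to match the hairpin, the change was 0.23. miR-145a-5p, from the same locus, was at 168 ± 24.4 CPM against 365 ± 44.6 CPM without overlap. Its change of −0.85 ± 0.50 did not pass (edgeR adjusted p = 1.7e-01). It did pass with the replicate block (−0.85, edgeR adjusted p = 2.2e-02), with only the 6 libraries fitted (edgeR adjusted p = 5.1e-09), with upper-quartile scaling (edgeR adjusted p = 3.3e-02) and with DESeq2 (adjusted p = 1.2e-02). miR-100-5p had overlapping libraries and did not pass, and its direction turned with the scaling (0.19 with TMM, −0.35 with upper-quartile scaling). miR-152-3p was lower by a small amount (log2 change −0.46 ± 0.14), a call lost when the whole insert had to match (−0.11, edgeR adjusted p = 5.3e-01). For this list, and for every other list share compared except that of miR-15/16, the 3 TUBO and 3 MM3MG-Her2 libraries gave an exact two-sided permutation p of 0.1, the smallest possible. The list took 4.90% ± 0.00986 of miRNA reads in TUBO cells, 10.8% ± 0.249 in MM3MG-Her2 and 18.9% ± 0.712 in MM3MG. Most of that share in each group was miR-143-3p, with means of 47496, 62484 and 105533 CPM in the same order. The summed share therefore says little about miR-199 and miR-214.

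Hox cluster miRNAs were lower in TUBO cells in all 5 cases tested, with a median log2 change of −4.48. They took 0.0195%, 0.0227% and 0.0184% of the TUBO miRNA reads and 3.61%, 3.37% and 3.33% in MM3MG-Her2. miR-10a-5p, whose hairpin lies at chr11:96317165-96317274 among the Hoxb genes, was at 30341, 28208 and 27879 CPM in MM3MG-Her2 against 57.8, 124.6 and 61.3 CPM in TUBO cells, highest there in replicate 2 (log2 change −8.23 ± 0.31, edgeR adjusted p = 6.8e-09). miR-196a-5p, made from a Hoxb and a Hoxc hairpin and known to cleave Hoxb8 mRNA, was at 4195, 4077 and 3812 CPM against 7.97, 9.97 and 9.28 CPM (log2 change −8.48 ± 0.23). miR-196b-5p from within Hoxa9 and miR-615-3p were lower by 3.46 ± 0.20 and 4.48 ± 0.40.

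For miR-10b-5p, in introns of Hoxd3 and Hoxd4 at chr2:74726070-74726137, the level in MM3MG-Her2 was itself low. It was at 116, 123 and 165 CPM there, 5.98, 32.4 and 5.57 CPM in TUBO cells and 9348 CPM on average in MM3MG. The change between the Neu-positive lines was −3.01 ± 0.64, and −4.21 without TUBO replicate 2. Its reads were told apart from those of miR-10a-5p within the first 18 bases used for assignment.

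The Dlk1-Dio3 imprinted locus on chromosome 12 encodes a large miRNA cluster, read from the maternal chromosome. Of its 72 arms with a read in the 9 cell libraries, 35 had a read in the 6 compared and 22 were tested. Most of these passed the filter through their level in MM3MG. In all, 18 were lower in TUBO cells, 0 higher and 4 not past the threshold. Of those called lower 12 had no TUBO read, and those not called had at most 2 reads in MM3MG-Her2 and 0 in TUBO cells. The median log2 change was −4.41, or −2.84 with the 12 at their bound. miR-127-3p was at 103, 84.2 and 56.7 CPM in MM3MG-Her2 and 3.98, 7.47 and 1.86 CPM in TUBO cells (log2 change −3.95 ± 0.40). Its mean in MM3MG was 6841 CPM, far above both lines compared here. The locus took 0.0438% ± 0.00454 of miRNA reads in MM3MG-Her2, 0.00173% ± 0.00217 in TUBO cells and 1.84% ± 0.0996 in MM3MG, and in TUBO cells replicate 2 held 0.00424% against 0.000598% and 0.000371%. The log2 change of miR-541-5p moved from −3.85 to −7.18 without that library, that of miR-411-5p from −4.42 to −6.88, that of miR-381-3p from −3.15 to −6.10, that of miR-127-5p from −3.52 to −5.22 and that of miR-379-5p from −2.80 to −3.59. In each case the call stood without that library. Several members rested on few reads, such as miR-382-3p with 5 in MM3MG-Her2 and 0 in TUBO cells (fitted change −4.41, and −3.62 without MM3MG-Her2 replicate 1).

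Several of the largest falls lay outside these lists. miR-598-3p, from an intron of Xkr6, was at 121, 126 and 193 CPM in MM3MG-Her2, miR-344d-3p at 155, 111 and 159 CPM, and miR-676-5p, from an intron of Eda on X, at 121, 142 and 119 CPM. None had a TUBO read, and they were at least 68.2-fold, 66.8-fold and 61.7-fold lower. The same held for miR-224-5p, from an intron of Gabre, at 116, 157 and 102 CPM and at least 61.7-fold lower, and for miR-196a-2-3p, the passenger arm of the Hoxc hairpin, at 155, 91.9 and 96.4 CPM and at least 55.3-fold lower. The feature miR-5126, at 103, 61.3 and 216 CPM against 0 TUBO reads, is uncertain, since 0% of its reads began at the RefSeq 5′ end, and its fitted change went from −8.36 to −7.67 without MM3MG-Her2 replicate 3. In the Sfmbt2 intron cluster, a rodent-specific array of repeated hairpins, 30 of 36 arms had a read in the 6 libraries and 2 were tested, both lower with no TUBO read. These were a sequence shared by miR-669a-3p, miR-669o-3p and miR-669p-3p, and miR-669c-5p, at least 20.1-fold and 40.2-fold lower; near-identical hairpins of that array may share reads.

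Markers of other cell types were mostly at or near 0. Of 7 muscle miRNAs 1 was tested: miR-206-3p, which promotes myogenic differentiation and has Esr1 among its known targets, was at 293, 249 and 221 CPM in MM3MG-Her2 with no read in TUBO cells, at least 124-fold lower. Its companions stayed at or below a few reads, with miR-1a-3p at 3 reads and miR-133a-3p at 0 in MM3MG-Her2. Of 8 blood cell miRNAs only miR-486-5p was above 1 read in the 6 libraries, as a sequence shared with miR-3107-5p, at 140 ± 13.6 CPM in TUBO cells and 722 ± 70.4 CPM in MM3MG-Her2. miR-142a-5p had 1 read, in TUBO replicate 1, and miR-451a, miR-223-3p, miR-142a-3p and the others were at 0. The endothelial miR-126a-3p had 18 reads in MM3MG-Her2 and 0 in TUBO cells.

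Of 6 neural miRNAs tested, 4 were lower, 1 higher and 1 not past the threshold (median −4.01). miR-218-5p, encoded in introns of Slit2 and Slit3, was at 345, 559 and 528 CPM in MM3MG-Her2 and had 1 read in TUBO cells, in replicate 2 (ratio 687, interval 122 to 27218); its fitted change went from −8.63 to −10.33 without that library. miR-132-3p and miR-212-3p, neighbours driven by CREB in neurons, were lower together. miR-132-3p was at 130 ± 14.7 CPM against 1469 ± 49.6 CPM, and miR-212-3p had 2 TUBO reads, both in replicate 1, against 71 (ratio 76.5, interval 20.4 to 644; fitted change −5.69, and −8.08 without that library or −5.09 without replicate 3). miR-129-5p had 1 TUBO read, in replicate 1, against 22 (fitted change −4.79, and −6.42 without it). miR-128-3p was the one that was higher (log2 change 1.45 ± 0.26).

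**Figure D3:**
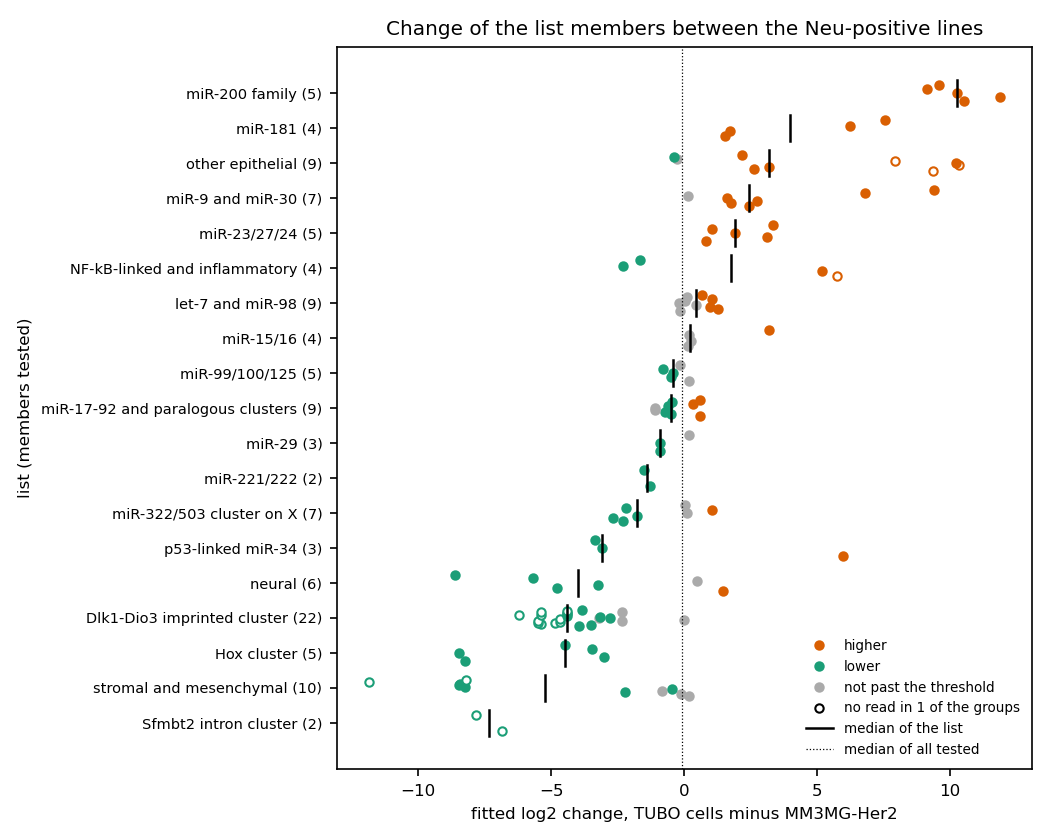
Fitted log2 change (TUBO cells minus MM3MG-Her2) of every tested member of the lists with at least 2 tested members, sorted by the list median (black bar), with the median of all tested as a dotted line. Open circles are members with no read in 1 of the groups and more than 3 in the other, whose fitted value is no bound. The miR-200 family lies at 9.13 and above, and the Hox cluster and stromal lists lie mostly below −2.

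miR-9 and miR-30 were linked by the study to the progesterone receptor from libraries that include these, so their direction here is not independent evidence. Of 7 tested arms 6 were higher in TUBO cells, 0 lower and 1 not past the threshold, with a median log2 change of 2.45. miR-9-5p, which targets the E-cadherin mRNA Cdh1, was at 54104, 55874 and 56221 CPM in TUBO cells, at 90.4, 107 and 96.4 CPM in MM3MG-Her2 and at 309 CPM on average in MM3MG. The TUBO libraries were far above both other groups (log2 change from MM3MG-Her2 9.41 ± 0.15, edgeR adjusted p = 2.6e-25). Its passenger arm miR-9-3p was at 179, 167 and 171 CPM with 1 read in MM3MG-Her2, in replicate 2 (fitted change 6.81, and 8.96 without it). The 3 Mir9 hairpins give the same mature sequence, so the reads do not say which of them was used.

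miR-30a-5p was at 34703, 31336 and 29751 CPM in MM3MG-Her2, below its TUBO levels given above in every library (log2 change 2.45 ± 0.09). miR-30c-5p and miR-30d-5p were higher by 2.75 ± 0.15 and 1.63 ± 0.12 and miR-30b-5p by 1.76 ± 0.17. miR-30e-5p was not: it was at 9070 ± 168 CPM in TUBO cells and 9841 ± 765 CPM in MM3MG-Her2, with overlapping libraries and a log2 change of 0.16 ± 0.10. With upper-quartile scaling it was lower (−0.38, edgeR adjusted p = 2.0e-03). miR-30e and miR-30c-1 both lie in introns of Nfyc on chromosome 4, and miR-30c can also come from Mir30c-2 on chromosome 1, near Mir30a.

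Within the miR-181 family all 4 members were higher, by very unequal amounts. miR-181c-5p and miR-181d-5p, cut from 1 locus in Nanos3 at chr8:84178716-84178961, were at 6889 ± 101 and 3546 ± 97.3 CPM in TUBO cells and at 109 ± 23.9 and 22.1 ± 8.87 CPM in MM3MG-Her2. Their log2 changes were 6.25 ± 0.17 and 7.56 ± 0.24. The more abundant miR-181a-5p and miR-181b-5p, each made from 2 hairpins elsewhere, were higher by 1.55 ± 0.10 and 1.72 ± 0.15. The miR-23/27/24 clusters showed the same kind of split. miR-23b-3p and miR-27b-3p from chromosome 13 were higher by 3.10 ± 0.15 and 3.34 ± 0.12, and miR-23a-3p and miR-27a-3p from chromosome 8 by 0.81 ± 0.15 and 1.05 ± 0.17, the former no longer called with upper-quartile scaling (edgeR adjusted p = 1.2e-01). miR-24-3p, which both clusters make, was higher by 1.93 ± 0.12. The median of the 4 miR-181 members was 3.99 and that of the 5 members of the miR-23/27/24 list 1.93, beside −0.10 over all tested.

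The 4 NF-kB-linked and inflammatory miRNAs, miR-21a-5p among them, split into 2 higher and 2 lower (median 1.78, or 0.09 with miR-146a-5p, which had no MM3MG-Her2 read, at its bound). miR-146b-5p, a brake on Traf6 and Irak1 signalling, was at 20803, 19851 and 18307 CPM in TUBO cells and 676, 632 and 635 CPM in MM3MG-Her2 (log2 change 5.20 ± 0.13, edgeR adjusted p = 2.8e-21). miR-155-5p, a proinflammatory miRNA of immune cells, was lower, at 42.1 ± 12.6 CPM against 246 ± 69.3 CPM. The p53-induced miR-34 family split by locus. miR-34a-5p was at 193, 167 and 163 CPM in TUBO cells with 2 reads in MM3MG-Her2 (ratio 58.5, interval 16.03 to 486; fitted change 5.98, and 5.32 without MM3MG-Her2 replicate 2), while miR-34b-5p and miR-34c-5p, from a separate locus at chr9:51103034-51103645, were lower by 3.08 ± 0.21 and 3.34 ± 0.15 (median of the 3 members −3.08).

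Clusters tied to proliferation differed by less: of 9 tested main arms of the miR-17-92 cluster and its paralogs, 3 were higher, 4 lower and 2 not past the threshold (median −0.49). From the miR-17-92 transcript Mir17hg, a Myc target, miR-92a-3p, which a hairpin on X also makes, was at 64059 ± 2741 CPM in TUBO cells and 107192 ± 7013 CPM in MM3MG-Her2 (log2 change −0.47 ± 0.09), and miR-17-5p, miR-18a-5p and miR-20a-5p were also lower, by 0.49 to 0.72. miR-19a-3p and miR-19b-3p had log2 changes of −1.10 ± 0.45 and −1.10 ± 0.52 and did not pass in the main fit of 9 libraries, where MM3MG replicates of miR-19b-3p ran from 2727 to 12324 CPM. Their TUBO and MM3MG-Her2 libraries did not overlap, and with only the 6 libraries fitted edgeR gave adjusted p = 8.8e-40 and 3.5e-33. With all 9, both passed with upper-quartile and library-size scaling and with DESeq2 (adjusted p = 1.1e-03 and 3.1e-03), and miR-19a-3p also with RLE scaling and the 100 CPM minimum. From the paralogous cluster in Mcm7, miR-106b-5p and miR-93-5p were higher by 0.60 ± 0.14 and 0.59 ± 0.11, calls that upper-quartile scaling removed (edgeR adjusted p = 7.3e-01 and 7.1e-01). miR-25-3p, at 0.33 ± 0.10 with overlapping libraries, changed sign there, to −0.21. Its call was also lost with RLE and library-size scaling, with DESeq2 and without TUBO replicate 2 (log2 change 0.23, edgeR adjusted p = 8.4e-02).

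The cluster of miR-322 and miR-503, which is induced in mammary involution, was lower at the 5′ end of its transcript and not at the 3′ end, with 4 of 7 arms lower, 1 higher and 2 not past the threshold (median −1.78). miR-322-5p, miR-322-3p, miR-503-5p and miR-351-5p were lower by 2.67 ± 0.16, 2.31 ± 0.17, 2.18 ± 0.14 and 1.78 ± 0.15. miR-542-3p and miR-450a-5p, at 0.05 ± 0.16 and 0.10 ± 0.25, did not pass and turned negative with RLE, upper-quartile and library-size scaling, the former passing there with upper-quartile scaling (−0.48, edgeR adjusted p = 8.4e-03). From the same end, miR-450b-5p was higher (1.04 ± 0.24, edgeR adjusted p = 5.8e-02 with upper-quartile scaling). miR-221-3p and miR-222-3p, repressors of the cell cycle inhibitor Cdkn1b, were lower by 1.27 ± 0.12 and 1.497 ± 0.12 (median −1.38). Of 3 members of the miR-29 family, which targets collagen mRNAs, 2 were lower and miR-29c-3p did not pass (median −0.91; 0.17 for miR-29c-3p, and −0.37 with upper-quartile scaling), with miR-29a-3p at 2938 ± 132 CPM against 6727 ± 188 CPM. Of the 5 members of the miR-99, miR-100 and miR-125 list 3 were lower and 2 did not pass (median −0.41). One of these, miR-99b-5p at −0.16, was lower past the threshold with RLE (edgeR adjusted p = 1.1e-02), upper-quartile and library-size scaling, DESeq2, the 100 CPM minimum and only the 6 libraries. Among those called, miR-125a-5p and miR-125b-5p were lower by 0.48 ± 0.13 and 0.40 ± 0.12. The latter did not pass without TUBO replicate 1 (log2 change −0.32).

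Some abundant miRNAs were nearly level on the TMM-scaled fit. let-7f-5p, let-7i-5p and let-7a-5p had log2 changes of 0.04 ± 0.11, 0.11 ± 0.10 and −0.15 ± 0.12 and did not pass, and neither did miR-423-3p at 0.12 ± 0.14. In CPM, without TMM scaling, only let-7f-5p of these had overlapping libraries. Every TUBO library was below every MM3MG-Her2 library for let-7i-5p (means 24672 against 27612), let-7a-5p (10892 against 14601) and miR-423-3p (1596 against 1775). Within the let-7 family, which restrains Ras, Myc and Hmga2, 4 of 9 members were higher and 0 lower with TMM scaling, while other settings called members lower. let-7a-5p and let-7e-5p were lower past the threshold with RLE, upper-quartile and library-size scaling, with DESeq2 and with only the 6 libraries, and let-7e-5p also with the 100 CPM minimum and whole-insert matching. let-7f-5p was lower with upper-quartile and library-size scaling and let-7i-5p with upper-quartile scaling, where miR-98-5p no longer passed and let-7d-5p turned from 0.43 to −0.11. The family's median was 0.43 with TMM scaling. The largest change was that of let-7b-5p, at 16649 ± 943 CPM against 8257 ± 549 CPM (log2 change 1.28 ± 0.12). let-7c-5p, the most abundant member in TUBO cells, was at 32894, 31478 and 30175 CPM against 20913, 18644 and 19110 CPM. Of 4 miR-15/16 members tested (median 0.21) only miR-195a-5p passed, at 215, 221.7 and 204 CPM in TUBO cells and 17.2, 42.1 and 22.7 CPM in MM3MG-Her2 (log2 change 3.18 ± 0.29). The direction of let-7f-5p, let-7i-5p, miR-15a-5p and miR-16-5p depended on the scaling and was negative with RLE, upper-quartile and library-size scaling.

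Summed by seed, the reads showed what pool of target-recognition sequences each line held. The miR-30 seed was the most common in TUBO cells, at 17.3%, 18.1% and 16.99% of miRNA reads, and took 5.36%, 4.81% and 4.67% in MM3MG-Her2. The miR-21a seed was the most common in MM3MG-Her2, at 29.0% ± 2.46, and took 7.67% ± 0.123 in TUBO cells. The let-7 seed was nearly level, at 13.1% ± 0.415 and 11.9% ± 0.696. The miR-9 seed took 5.53% ± 0.113 in TUBO cells and 0.00920% ± 0.00108 in MM3MG-Her2, and the miR-199a-3p seed 0.00783% ± 0.00813 and 2.90% ± 0.0903. The TUBO value of the latter was 0.0172% in replicate 2 and 0.00259% and 0.00371% in the others. The 50% mark of miRNA reads was reached by 5 seeds in TUBO cells and by 3 in MM3MG-Her2.

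**Figure D4:**
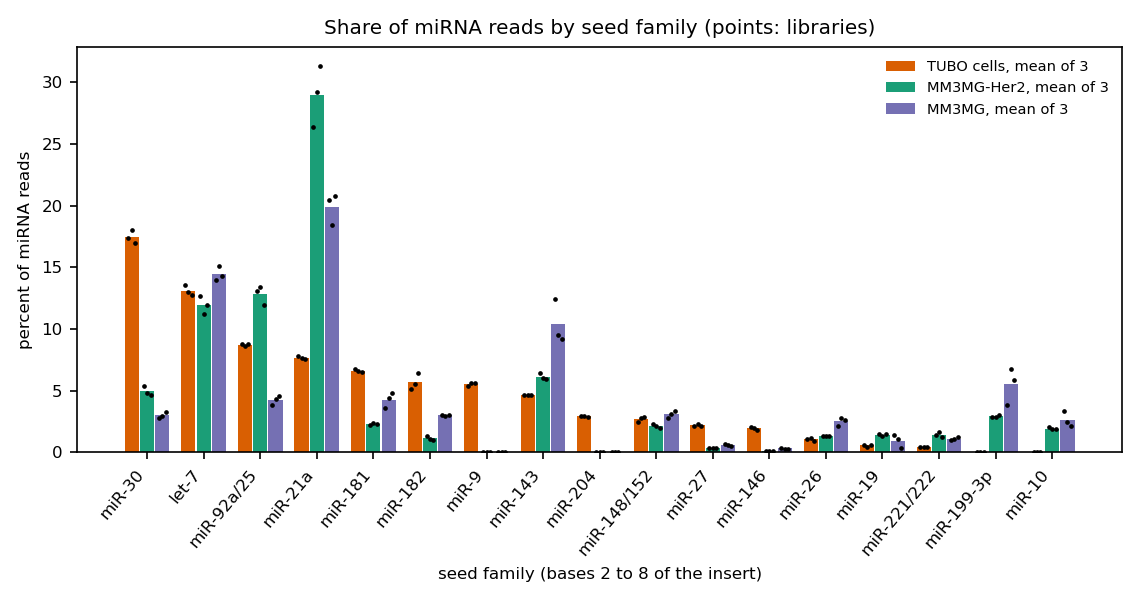
Percent of miRNA reads by the seed of the insert itself, for the seed families that ranked among the 12 highest in TUBO cells or MM3MG-Her2; bars are means of 3 libraries and points are libraries. The miR-30, miR-9 and miR-204 bars stand out in TUBO cells, and the miR-21a and miR-199-3p bars in the MM3MG lines.

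Some groups of neighbouring hairpins had all their calls in 1 direction. Of 245 tested miRNAs with a single hairpin, 101 lay in 25 groups of hairpins on 1 strand with gaps of 10 kb or less. In 6 groups every member was higher and in 3 every member was lower, in 2 calls went both ways, and in the other 14 at least 1 member did not pass. Over all 282 tested, 33.3% were higher and 40.1% lower. Groups held as few as 2 tested arms, and in some groups both arms of 1 hairpin were counted. How many such groups the overall rates alone would give was not tested. The groups with every member higher were the loci of miR-200b with miR-200a and miR-429, of miR-200c with miR-141, of miR-183 with miR-96 and miR-182, of miR-181c with miR-181d, of miR-23b with miR-27b, and of miR-191 with miR-425.

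The reference level in MM3MG was set beside both lines for called miRNAs that reached 100 CPM in TUBO cells or MM3MG-Her2 and did not overlap, using log2(CPM + 1) means as a description. Of 66 higher in TUBO cells, the MM3MG level was nearer to MM3MG-Her2 for 50 and nearer to TUBO cells for 16. Of 78 lower in TUBO cells, it was nearer to MM3MG-Her2 for 52 and nearer to TUBO cells for 26.

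The reads of miR-21a-5p also differed in form. They began at the RefSeq 5′ end in 99.0% of TUBO reads and 99.1% of MM3MG-Her2 reads but ended at different 3′ positions. The main form and 3 others whose shares did not overlap between the lines are printed, with an added base that does not match the hairpin in capitals.
21 bases: uagcuuaucagacugauguug
22 bases: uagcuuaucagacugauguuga
23 bases: uagcuuaucagacugauguugac
24 bases, added C: uagcuuaucagacugauguugacC
The 23-base form was the main one in both lines, at 67.3% ± 0.840 of miR-21a-5p reads in TUBO cells and 69.6% ± 2.75 in MM3MG-Her2. The form with an added C took 2.29%, 2.48% and 2.40% in TUBO cells, 7.42%, 6.32% and 5.75% in MM3MG-Her2 and 1.26% ± 0.130 in MM3MG. The 21-base form went the other way, at 6.20%, 5.76% and 5.46% in TUBO cells, 1.59%, 1.497% and 1.54% in MM3MG-Her2 and 7.78% ± 0.712 in MM3MG. A 19-base form, not printed, took 0.835% ± 0.0656 and 0.450% ± 0.0516. For these 3 forms the TUBO and MM3MG-Her2 libraries did not overlap (exact two-sided permutation p = 0.1, the smallest possible).

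**Figure D5:**
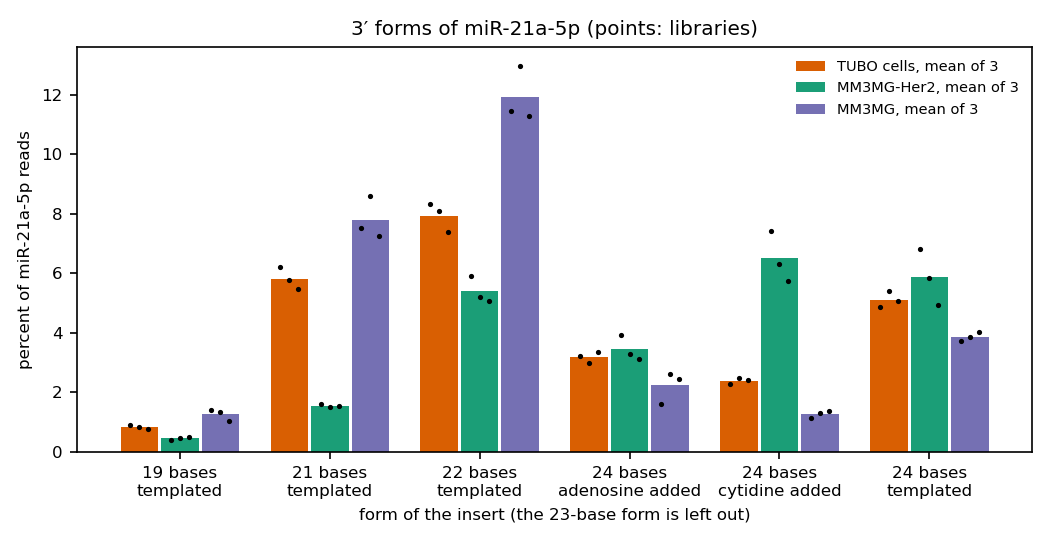
Percent of miR-21a-5p reads in each 3′ form above 1% in some library, the 23-base form left out; bars are means of 3 libraries and points are libraries. MM3MG-Her2 has the tallest bar for the form with a cytidine added and the lowest for the 21-base form.

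Over all miRNAs, 1 added C ended 0.547% ± 0.0388 of miRNA reads in TUBO cells, 2.43% ± 0.0985 in MM3MG-Her2 and 0.726% ± 0.0247 in MM3MG. Most of that difference was miR-21a-5p: with it left out, the shares were 0.378% ± 0.0442, 0.583% ± 0.0127 and 0.567% ± 0.0177. Library composition moved with these shares, as given above, and its part was not tested.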

How the data were processed

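Small RNA libraries of 3 TUBO, 3 MM3MG-Her2 and 3 MM3MG samples were analysed. The authors deposited, per library, distinct insert sequences with their read counts, not normalized, and no molecular identifiers are named in the labels' protocols. The submitters' aligner and genome build were not given in the sources used here. Hairpins came from GENCODE M21 (GRCm38). Inserts took the arm of the RefSeq mature miRNA they overlapped. Where there was none, the loop position from RNAfold 2.7.2 set the arm. Inserts of 18 to 26 bases whose first 18 bases matched a hairpin arm exactly were counted for that arm. Where arms shared these bases, the arm with the fewest differences in the tail was taken. No limit was set on differences in the tail. Arms sharing at least 50% of reads were merged (26 features), and 0.0629% of miRNA reads were tied and went to the arm with more untied reads. Mature sequences came from RefSeq for 633 of 822 features.

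Counts were fitted with edgeR 4.0.16 (R 4.3.3; filterByExpr, TMM, robust quasi-likelihood test, 9 libraries, group as the only term), with Benjamini-Hochberg adjustment over the 282 miRNAs tested and a threshold of 0.05. The fit was run on simulated data with fewer and smaller changes than here, balanced between rises and falls. That run therefore cannot show how well the scaling holds for these libraries. Alternatives were RLE, upper-quartile and library-size scaling, DESeq2 1.42.0, other filters, other matching rules, only 6 libraries, a replicate block and each replicate left out. Shares were compared by exact permutation tests (scipy 1.17.1). Ratio intervals are 95% counting intervals, and a group without reads was set at 3 reads over the group. Ratios given as at least took the reads of the other group as observed, without their counting error.

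miRNAs were named by a rule: the 12 largest rises and 12 largest falls among those called, at 100 CPM or more in either group and without overlap, the 8 most abundant of each line, the 5 nearest to no change at 1000 CPM or more in both, and examples from the lists described in the results. The members and lists were chosen with earlier results of these data known. The miR-382-3p example was chosen after its values were seen. The TUBO exosome and TUBO supernatant libraries of the series were not used here.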

Additional observations from a re-analysis of the deposited data

How the results depend on the processing

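The number of miRNAs past the threshold was 207, and 203 to 212 when each replicate was left out (91 to 100 higher, 110 to 120 lower). It was 213 with RLE scaling or DESeq2, 224 with upper-quartile and 218 with library-size scaling, 255 without a filter and 193 with only the 6 libraries. Requiring a mean of 100 CPM gave 126, with 60 higher and 66 lower, since fewer miRNAs were tested. With the replicate block the count was 208 (94 higher, 114 lower). Same-numbered libraries did not deviate together (correlations −0.06, −0.02 and −0.02). These correlations include miRNAs with few reads, where counting error is large. They therefore cannot show whether same-numbered libraries shared a culture or a batch, which is not stated.

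Of the named miRNAs' alternative values, 631 kept their direction and side of the threshold, 10 newly passed it in the same direction and 16 reversed, all 16 among miRNAs that had not passed. Of the reversed values 4 passed it in the other direction: let-7f-5p with upper-quartile and library-size scaling, and let-7i-5p and miR-423-3p with upper-quartile scaling. The log2 change of let-7f-5p became −0.15 with RLE scaling and with DESeq2, −0.50 with upper-quartile and −0.23 with library-size scaling, −0.035 with the 100 CPM minimum and −0.03 with 6 libraries, and ran from −0.022, without MM3MG-Her2 replicate 2, to 0.12, without replicate 3. In the order RLE, upper-quartile, library size and DESeq2, let-7i-5p became −0.087, −0.43, −0.16 and −0.087, and miR-423-3p −0.078, −0.42, −0.15 and −0.078. miR-143-3p became 0.23 when the whole insert had to match, and miR-423-3p passed as higher there (0.33, edgeR adjusted p = 4.4e-02). That setting removes reads that depart from the hairpin after base 18. For miR-143-3p these were 53.8% of reads in TUBO cells and 64.5% in MM3MG-Her2, and for miR-423-3p 18.5% and 30.9%. The cause of the other reversals was not tested beyond the shift in scaling.

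Differences in list shares (TUBO cells minus MM3MG-Her2, percentage points) kept their direction in all alternatives run, and 204 of them moved by less than the spread. With whole-insert matching they became −4.57 for the stromal list, −0.108 neural, −0.0315 blood, −3.80 Hox, 19.5 miR-9 and miR-30, −0.247 miR-34, −0.396 for the miR-322 cluster, −0.416 miR-29, −0.0453 miR-15/16 and 1.94 miR-23/27/24. With inserts of 21 to 24 bases they became 2.65 for miR-200, 6.10 other epithelial, 19.99 miR-9 and miR-30, −0.399 for the miR-322 cluster, 3.78 miR-181 and 2.12 miR-23/27/24. The cause was not tested. Depth limits miRNAs with under 3 reads in a group, whose ratios span wide intervals.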

Other observations

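Both arms of 63 hairpins were tested. Their calls had the same direction for 37 hairpins, 1 arm alone passed for 15 and neither for 10. The exception was Mir106b, whose 5p arm was higher (log2 change 0.60) and 3p arm lower (−0.37).

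Untemplated ends also differed when all miRNAs, miR-21a-5p included, were pooled. Reads that departed from the hairpin anywhere after base 18 made up 13.5% ± 0.165 (SD, n = 3) of miRNA reads in TUBO cells, 18.5% ± 0.826 in MM3MG-Her2 and 20.1% ± 0.390 in MM3MG. An added A ended 2.55% ± 0.0531, 4.44% ± 0.207 and 4.02% ± 0.278, and an added U 6.85% ± 0.0213, 6.19% ± 0.272 and 10.1% ± 0.672. TUBO and MM3MG-Her2 libraries did not overlap in any of these shares (exact two-sided permutation p = 0.1 for each, the smallest possible). Pooled shares also depend on which miRNAs were abundant in each line, and that part was not tested. Taken singly, 51 miRNAs had at least 1000 CPM in both lines. The share of reads departing from the hairpin was lower in TUBO cells for 35 of them, 28 without overlap. It was higher for 16, of which 12 did not overlap.

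Of 51 miRNAs with at least 1000 CPM in both lines, 45 had a shorter mean insert in TUBO cells, 36 of them without overlap, and 6 a longer one. The median difference was −0.10 bases. miR-182-5p averaged 23.96 bases in TUBO cells, 24.45 in MM3MG-Her2 and 23.5 in MM3MG. The share of short inserts in the libraries moved the other way, and its part was not tested.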
